A study of Caenorhabditis elegans with 2 samples.

Results

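Binding of the homeodomain protein CEH-82 was examined at the promoters of 40 Caenorhabditis elegans genes for the nuclear pore and for nuclear transport, of 19973 protein-coding genes in all. The 40 are the protein-coding genes whose WBcel235 name starts with npp-, imb-, ima-, ran- or xpo-, so genes of the same machinery with other names are missed. Chromatin immunoprecipitation and sequencing was carried out in 1 group of whole L1 larvae, the first larval stage, with 2 biological replicates. The worms were of strain OP212, genotype unc-119(ed3) III; ddEx58, a transgenic line with GFP-FLAG fused to the C terminus of F45C12.2, which is ceh-82. Males and females were pooled and the exact age is not given. All animals carried the same transgene, and there was no other strain, stage or treatment to compare. Ex denotes an extra-chromosomal array in worm nomenclature, although another label speaks of an insertion. Such arrays are often lost from some cells and can raise a protein above its usual level. The data are therefore of a tagged protein in 1 line and in mixed tissue, and no control library was analysed here.

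The nuclear pore is a large ring of nucleoporins set in the nuclear envelope. Its outer and inner rings form the scaffold, a channel lined with phenylalanine-glycine repeats lets cargo through, and filaments face the cytoplasm and the nucleus. Importins carry proteins into the nucleus and exportins carry cargo out. The small GTPase Ran, held as Ran-GTP in the nucleus and as Ran-GDP in the cytoplasm, gives this traffic its direction. In worms these genes are broadly used in dividing and non-dividing cells, and many are needed in the embryo.

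The deposited values are peak lists. The thresholded list held the 2052 pooled peaks left after thresholding by irreproducible discovery rate. This does not mean that each peak was found in both replicates. Of 1439 thresholded peaks at promoters, 1362 overlapped an entry of replicate 1 and 1438 an entry of replicate 2. The pooled relaxed list held 30000 entries, in which peaks and background are mixed. Each peak has a signal, the authors' score, which is never negative. The same thresholded peaks, with the same signal, were the 2052 strongest entries of the pooled list, so signal can be read across both. A gene was given a peak when the summit lay between 1000 bp upstream and 200 bp downstream of any annotated transcript start. Of several peaks the strongest was taken. Ranks count from 1 for the highest signal, among 16551 entries in replicate 1 and 30000 in replicate 2. Signal scales differ between the replicate lists, so replicates are set side by side by rank. The sources used here give no read depth.

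To show what lay at the summits, the 100 bp around those of ran-5 and npp-3, which are among the strongest of the members' peaks, are given on the plus strand of WBcel235 (ce11, RefSeq). ran-5 encodes a protein with a Ran-binding domain and npp-3 encodes the worm Nup205, a scaffold protein of the inner ring. Capitals in npp-3 mark the heptamer CTGCGTC or its reverse complement, searched on both strands.
ran-5, chrII:6047791-6047890: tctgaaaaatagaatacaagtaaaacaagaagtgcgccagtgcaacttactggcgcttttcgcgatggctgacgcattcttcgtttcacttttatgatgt
npp-3, chrII:11874805-11874904: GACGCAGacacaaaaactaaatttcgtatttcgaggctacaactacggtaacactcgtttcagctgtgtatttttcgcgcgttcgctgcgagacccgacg

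Another set shows the hexamer GGCGGG, which was present in more of these windows than any other of the 4 motifs searched. Capitals mark the hexamer or its reverse complement in the windows of ima-1 (an importin alpha), npp-8 (Nup155 of the inner ring), npp-22 (the membrane nucleoporin NDC1) and npp-23 (Nup43 of the outer ring).
ima-1, chrV:11239321-11239420: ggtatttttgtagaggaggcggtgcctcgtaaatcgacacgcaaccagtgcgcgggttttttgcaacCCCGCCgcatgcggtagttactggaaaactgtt
npp-8, chrIV:1595970-1596069: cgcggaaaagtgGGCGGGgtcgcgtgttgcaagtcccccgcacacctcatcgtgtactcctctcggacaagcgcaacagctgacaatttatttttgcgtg
npp-22, chrV:11733647-11733746: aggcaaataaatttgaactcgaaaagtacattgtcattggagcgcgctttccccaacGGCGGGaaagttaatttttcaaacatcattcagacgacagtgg
npp-23, chrIV:8869792-8869891: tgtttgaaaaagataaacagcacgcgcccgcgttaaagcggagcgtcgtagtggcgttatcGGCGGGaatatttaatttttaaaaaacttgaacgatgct

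A thresholded peak lay at the promoter of 20 of the 40 genes (50%, 95% Wilson interval 35.2 to 64.8), beside 9.91% of all 19973 protein-coding genes. Of these 20 peaks 11 were shared with a gene on the opposite strand, and with unshared peaks alone the count was 9 of 40, beside 4.29% of all genes. Another 16 had a relaxed peak only, and 4 had none. Together 36 of 40 (90%, 76.9 to 96) had an entry of either kind, beside 43.4% of all genes. The intervals cover the counting of genes only, and the entries of the relaxed list may in part be background. Each of the 20 members had a single thresholded peak in its window and each peak was a different one. The members' signals ran from 22.9 to 97.6 with a median of 49.2 (interquartile range 37.6 to 66.4). The 1439 thresholded peaks in any promoter window had a median of 43.2 (30.05 to 67) and a maximum of 406. The highest member peak was that of ran-5 at rank 182 of 2052, and 12 of the 20 were above the median of promoter peaks.

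**Figure D1:**
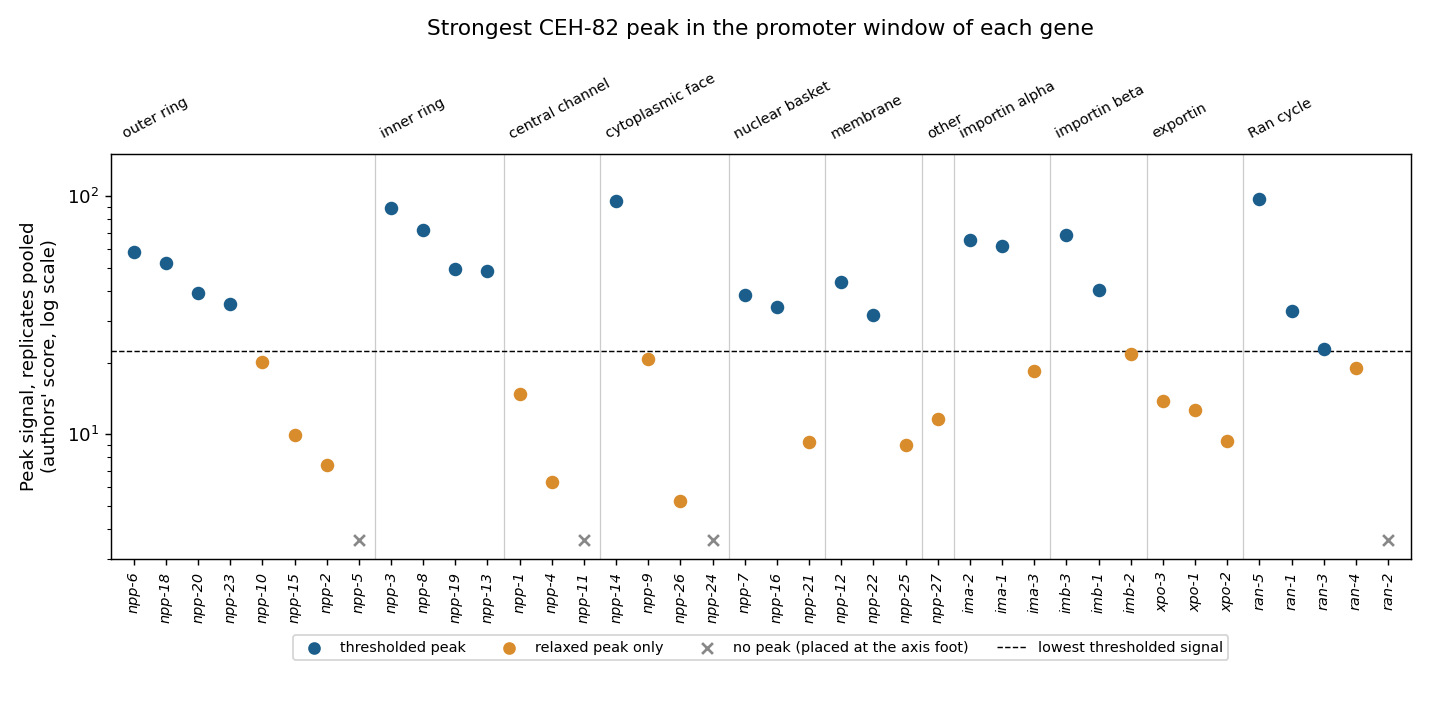
Signal of the strongest peak in the promoter window of each of the 40 genes, grouped by role (authors' score, replicates pooled, log axis). Blue points are thresholded peaks, orange points relaxed peaks, grey crosses the 4 genes with no peak, and the dashed line is the lowest thresholded signal, 22.3. All 4 inner ring genes lie above the line and all 3 exportin and 3 channel genes below it.

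Of the 8 outer ring genes, which encode the Y-shaped scaffold complex, 4 had a thresholded peak (Wilson interval 21.5 to 78.5%). For this and each later role the share to set beside the count is the 9.91% of all genes. The counts by role are small, and differences between roles were not tested. npp-6, the worm Nup160, had a signal of 58.4 and ranked 966 in replicate 1 and 510 in replicate 2. npp-18, which encodes SEH1, had 52.6 and ranked 1019 and 596. npp-20, which encodes SEC13, a protein shared with the COPII coat of secretory vesicles, had 39.2 and ranked 2020 and 1013. npp-23 had 35.1 and ranked 2071 and 1098. All of them stood higher in the list of replicate 2, which is also the longer list. The other members of the ring were weaker. npp-10, which encodes the Nup98 and Nup96 precursor, had a relaxed peak of 20.03 that overlapped an entry of replicate 2 (rank 2025) and none of replicate 1. npp-15, the worm Nup133, had 9.92 and npp-2, which encodes Nup85, had 7.43, both with no overlapping entry in replicate 1. npp-5, the worm Nup107, had no peak, and the nearest thresholded summit was 20206 bp from its start.

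The inner ring genes all had a thresholded peak, 4 of 4 (Wilson interval 51 to 100%). npp-3 had a signal of 89.5 and ranked 344 in replicate 1 and 225 in replicate 2. npp-8 had 72.4 and ranked 643 and 343. npp-19, which encodes NUP35, had 49.6 and ranked 1318 and 685, and npp-13, the worm Nup93, had 48.7 and ranked 2513 and 612. The last is the member in this ring for which the replicates differed most in rank. These 4 genes lie on 3 chromosomes, II (npp-3 and npp-19), IV (npp-8) and I (npp-13), and are not neighbours.

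None of the 3 channel genes had a thresholded peak (interval 0 to 56.1%). The counts are small, and the difference from the inner ring was not tested. npp-1, the worm Nup54, had a relaxed peak of 14.7 with its summit 196 bp upstream, which overlapped an entry of replicate 2 (rank 3227) and none of replicate 1. npp-4, which encodes the p58/p45 nucleoporin, had a relaxed signal of 6.29 that overlapped no entry of either replicate, and npp-11, the worm Nup62, had no peak, with the nearest thresholded summit 4789 bp from its start. With a window of 2000 bp upstream, npp-4 took a thresholded peak whose summit was 1644 bp from its start.

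On the cytoplasmic face, 1 of 4 genes had a thresholded peak. That was npp-14, the worm Nup214, with a signal of 95.6 and ranks of 317 and 181 in replicates 1 and 2. It was the second strongest of the 40. npp-9, the worm Nup358, had a relaxed peak of 20.7 and ranked 4057 and 2139. npp-26, which encodes GLE1, a factor of mRNA export, had 5.26 and no overlapping entry in either replicate, and npp-24, the worm Nup88, had no peak within reach, the nearest thresholded summit being 31713 bp away. The npp-14 peak was shared with cel-1, and its summit was nearer to the cel-1 start.

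The nuclear basket had 2 of 3. npp-7, the worm Nup153, had a signal of 38.4 and ranked 611 in replicate 1 and 1327 in replicate 2, so it was the higher in replicate 1. npp-16, the worm Nup50, had 34.2 and ranked 1930 and 1381. npp-21, the worm Tpr, had a relaxed peak of 9.27 and ranked 9337 and 9920. Of the 3 membrane nucleoporins, npp-12 (the worm gp210) had 43.7 and ranked 1978 and 757, and npp-22 (NDC1) had 31.7 and ranked 1084 in replicate 2 with no overlapping entry in replicate 1. npp-22 was the only thresholded member without a match in replicate 1. npp-25, for a homologue of transmembrane protein 33, had a relaxed peak of 9.04, and npp-27, which RefSeq lists as a protein with a C3HC-type domain, had 11.6.

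Importins had thresholded peaks at 4 of 6 genes. Importin alpha proteins bind the nuclear localization signal of the cargo and join it to importin beta. ima-2 had a signal of 65.5 and ranked 683 in replicate 1 and 449 in replicate 2. ima-1 had 61.8 and ranked 359 and 574. ima-3 had a relaxed peak of 18.4 and ranked 2679 and 2384. Among the carriers of the importin beta family, imb-3, related to importin 5, had 69 and ranked 883 and 360, and imb-1, which encodes importin beta itself, had 40.5 and ranked 1350 and 1044. imb-2, for a transportin, had a relaxed peak of 21.7, rank 2113 of the pooled list, just below the lowest thresholded signal of 22.3. It is the member nearest to the threshold from below, and ran-3 at 22.9 is the nearest from above.

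None of the 3 exportin genes had a thresholded peak, but all had relaxed ones. xpo-3, for the exportin of tRNA, had a signal of 13.8 and ranked 1809 in replicate 1 and 6519 in replicate 2. It would be among the 2052 strongest of replicate 1 alone. xpo-1, the exportin for proteins with a leucine-rich export signal, had 12.7 with a match in replicate 2 only (rank 3118), and its summit was 913 bp upstream and inside the gene uvs-1. xpo-2, the exportin that returns importin alpha to the cytoplasm, had 9.36 and ranked 3561 and 12391.

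Of the 5 Ran cycle genes, 3 had thresholded peaks. ran-5 had the highest signal of all members, 97.6, and ranked 157 in replicate 1 and 198 in replicate 2. ran-1, for Ran itself, had 33 and ranked 2739 and 1161. ran-3, the worm RCC1, the exchange factor that loads Ran with GTP on chromatin, had 22.9 and ranked 1340 and 2278. ran-4, for nuclear transport factor 2, which brings Ran-GDP back into the nucleus, had a relaxed peak of 19 and ranked 1523 and 3011. ran-2, for the Ran GTPase-activating protein, had no peak. It lies 479 bp behind npp-15 on the same strand, and the nearest thresholded summit was 7495 bp from its start.

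Both replicates were compared peak by peak. Of the 40 genes, 15 (37.5%, 24.2 to 53) had a thresholded peak that overlapped one of the 2052 strongest entries of each replicate, beside 7.24% of all genes. Both libraries had also entered the making of the thresholded list, so the count is a description. The remaining 5 were npp-13, npp-22, npp-23 and ran-1, which fell short in replicate 1, and ran-3, which did so in replicate 2. The median rank of member peaks was 1019 over the 19 matched in replicate 1 and 648 over 20 in replicate 2. For all thresholded promoter peaks the medians were 968 (1362 matched) and 916 (1438 matched). Replicate 2 signal was a median of 4.44 times that of replicate 1 over 19 member peaks (range 1.89 to 8.37) and 3.54 times over 1361 promoter peaks. The scales of the lists differ, and this ratio is not read as binding. With the strongest 2052 entries of a single replicate in place of the thresholded list, 20 members had a peak from replicate 2 (beside 9.86% of all genes) and 18 from replicate 1 (beside 9.14%).

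**Figure D2:**
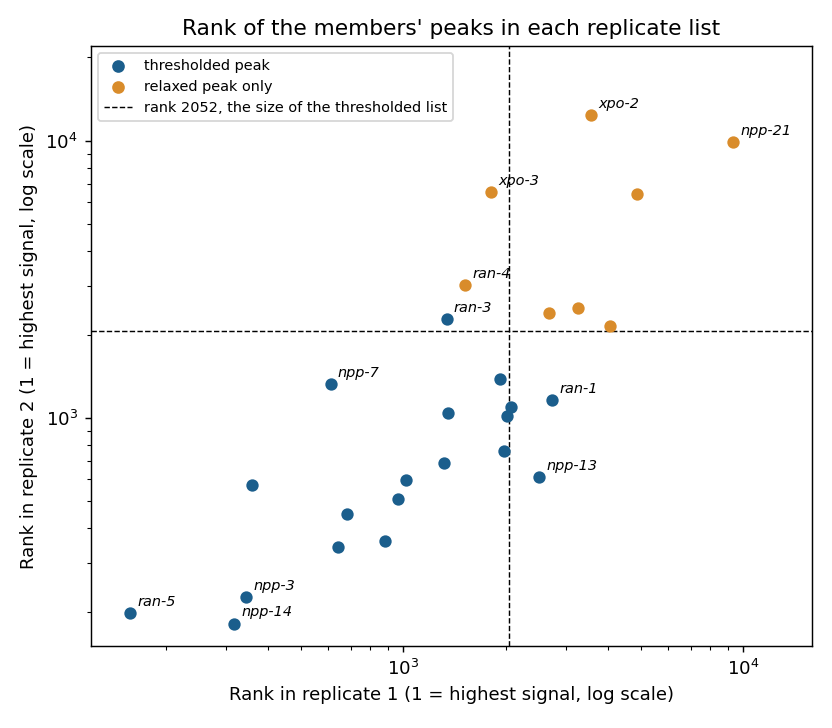
Rank of each member's peak in replicate 1 (horizontal) and replicate 2 (vertical), on log axes, for the 19 thresholded (blue) and 8 relaxed-only (orange) members matched in both lists. The dashed lines are at rank 2052, and 15 blue points lie below both lines.

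Of the 16 relaxed-only members, 8 overlapped an entry of both replicates, 6 of replicate 2 only and 2 of neither (npp-4 and npp-26). The peak also lay in the window of another gene for 10 of the 16, such as npp-10 with cyk-3 and npp-9 with F59A2.5 and golg-4. No share over all genes with only a relaxed peak is given beside these counts, which describe the members alone. Signals of the 16 members' strongest peaks ran from 5.26 to 21.7 with a median of 12.1. For the 8539 pooled promoter peaks that overlapped no thresholded peak the median was 6.38. Those 8539 include the weaker further peaks of a gene, which were left out for the members, so the medians are of unlike units. For 6 of the relaxed-only members (ima-3, imb-2, npp-1, npp-9, npp-10 and ran-4) the -log10 q value was at the list's ceiling of 3.81. It was so for all 20 thresholded members too, so q values at the ceiling cannot be compared. For the other relaxed-only members it was lower, from 0.155 (npp-26) to 3.12 (xpo-3). Low values included 0.333 (npp-4), 0.618 (npp-2), 1.15 (npp-25), 1.22 (npp-21) and 1.25 (xpo-2).

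**Figure D3:**
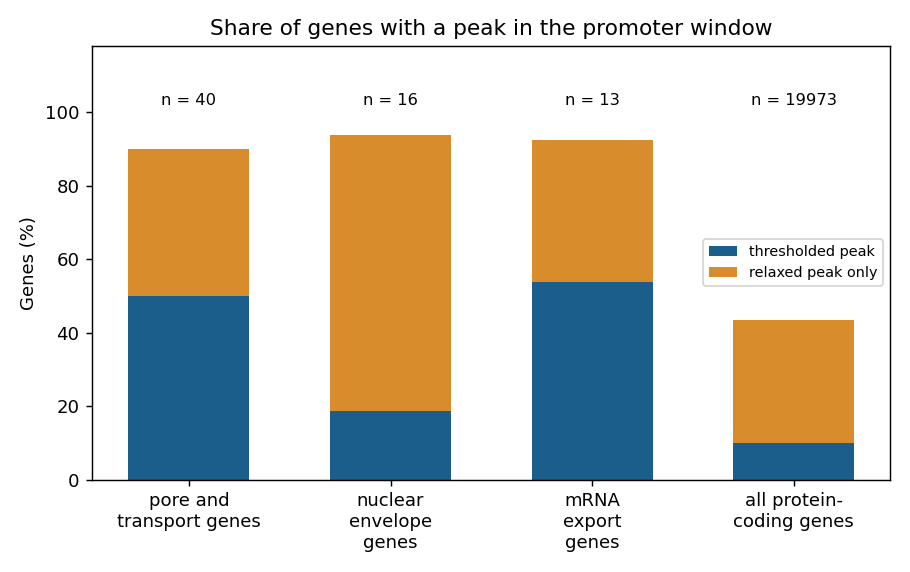
Share of genes with a thresholded peak (blue) or with a relaxed peak only (orange) in the promoter window, in percent, for the 40 members, the 2 related lists and all protein-coding genes, with the number of genes above each bar. The blue part is 50% for the members, 18.8% for nuclear envelope genes, 53.8% for mRNA export genes and 9.91% for all genes.

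All 20 thresholded summits lay upstream of the start, from 67 bp (npp-3) to 666 bp (npp-12), with a median of 250 bp (interquartile range 159 to 313). Over all 1980 genes with a thresholded peak the median was 222 bp (130 to 384), and 96.7% lay upstream. Relaxed summits of members were at a median of 282 bp, and npp-2 had its summit 27 bp downstream. Among the thresholded members, the summit closest to a start after npp-3 was that of npp-16 at 79 bp, then imb-1 at 80 bp and npp-20 at 111 bp. Within 200 bp of the 20 summits there was no tRNA, snoRNA, snRNA, rRNA or miRNA gene (0 of 20), beside 4.03% of the 1439 thresholded promoter peaks.

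**Figure D4:**
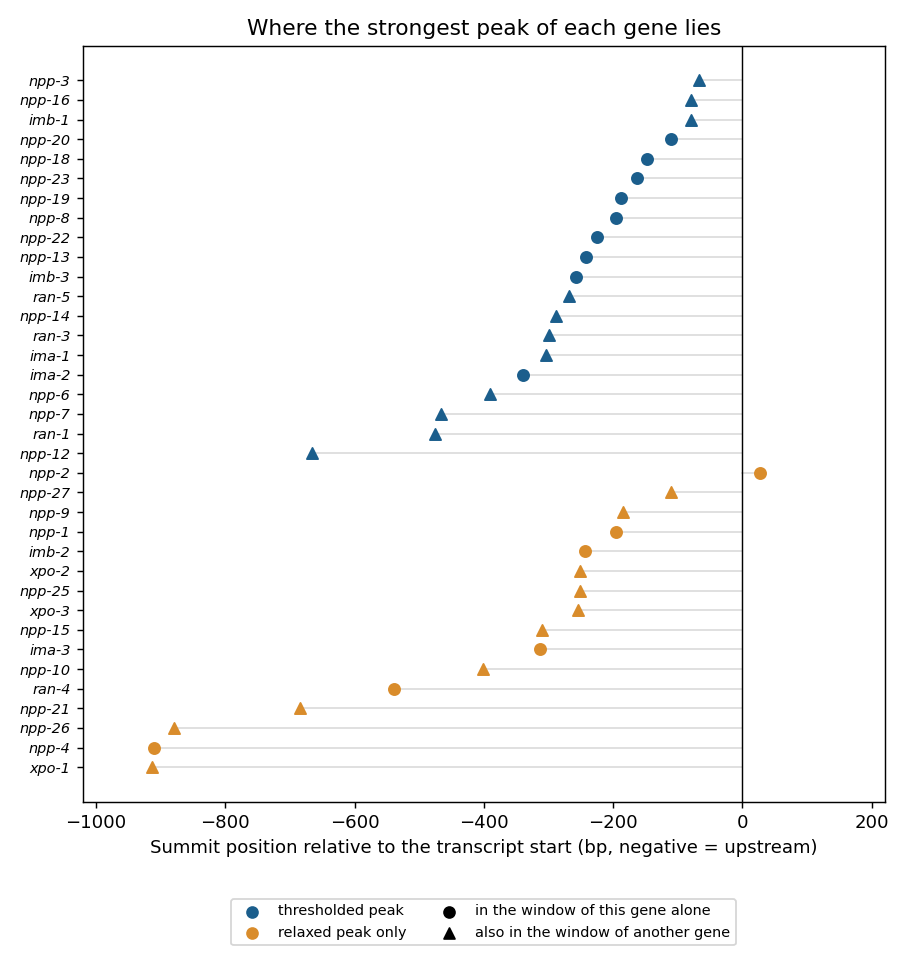
Position of the summit of each member's strongest peak relative to the transcript start, in bp, with upstream to the left (blue thresholded, orange relaxed only). Circles are peaks found for that gene alone and triangles are peaks also in the window of another gene. The 20 thresholded summits lie between 67 and 666 bp upstream.

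Many members have a nearest upstream gene that runs the other way, in some cases far off (7257 bp for npp-19). For 29 of 40 (72.5%) the nearest upstream protein-coding gene was on the opposite strand, beside 45.4% of all genes. Of these 29, 16 had a thresholded peak (55.2%, beside 15.3% of 9070 genes so placed), and of the 11 with a same-strand neighbour 4 had one (36.4%, beside 5.45% of 10898). The members' share was thus above that of all genes with the same strand arrangement in both cases, on counts of 29 and 11 with no test made. The distance to the upstream gene was not matched. Of the 20 peaks 9 lay in the window of only 1 gene (45%), beside 61.4% of 1439 promoter peaks, and the other 11 were each shared with 1 gene on the opposite strand.

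Such a peak cannot be given to either gene of the pair. Counted from starts whose window held the summit, it was nearer to the other gene in 8 of 11 pairs. The ran-5 summit lay 268 bp upstream of ran-5 and 26 bp inside R12C12.6. The npp-14 summit lay 289 bp from npp-14 and 47 bp from cel-1, which encodes the mRNA capping enzyme. The ima-1 summit lay 304 bp from ima-1 and 40 bp from dvc-1, and the ran-3 summit 299 bp from ran-3 and 35 bp from C26D10.3. The ran-1 summit lay 475 bp from ran-1 and 226 bp from dkc-1, for a pseudouridine synthase of ribosomal RNA, and the npp-7 summit 466 bp from npp-7 and 295 bp from unc-40, for a netrin receptor. The npp-12 summit was 666 bp from npp-12 and 173 bp from T23H2.3, and the imb-1 summit was near both starts, 80 bp from imb-1 and 69 bp from mfsd-13.1.

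In the other 3 pairs the summit was nearer to the member by that count. The npp-3 summit lay 67 bp from npp-3 and 293 bp from top-2, for a type II topoisomerase. The npp-16 summit lay 79 bp from npp-16 and 137 bp from ndab-1. The npp-6 summit, 391 bp from npp-6, lay inside spd-5, for a scaffold protein of the centrosome, and was in the spd-5 window only through an inner transcript start 730 bp away. The outermost spd-5 start was 216 bp from the summit, so over all starts npp-6 was the farther gene and the count is 9 of 11. The 9 peaks not shared with another gene were those of ima-2, imb-3, npp-8, npp-13, npp-18, npp-19, npp-20, npp-22 and npp-23. They include 3 of the 4 inner ring and 3 of the 4 thresholded outer ring genes. The npp-22 summit lay inside the upstream gene spe-42, 225 bp from the npp-22 start.

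By chromosome, thresholded peaks lay at 8 of 13 members on chromosome I, 4 of 8 on II, 3 of 8 on III, 3 of 8 on IV and 2 of 3 on V, and the X chromosome holds no member. For all protein-coding genes the shares were 14.1% on I, 8.81% on II, 15.9% on III, 9.94% on IV and 6.61% on V. Of the strongest member peaks, that of ran-5 was at chrII:6047726-6047955, that of npp-14 at chrI:9665089-9665318, that of npp-3 at chrII:11874740-11874969 and that of npp-8 at chrIV:1595905-1596134. The imb-3 peak was at chrI:315132-315361 and the ima-2 peak at chrI:6314779-6315008. All coordinates are ce11 and count from 1, and all 20 thresholded peaks were 230 bp wide. ran-5 (WBGene00004306) spans 6048109 to 6049686 on the plus strand of chromosome II, npp-3 (WBGene00003789) spans 11865431 to 11874788 on the minus strand there, and npp-8 (WBGene00003794) spans 1567921 to 1595824 on the minus strand of IV.

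Related genes with other names were read from lists chosen with earlier results of these data known. Of all protein-coding genes 9.91% had a thresholded peak and 43.4% an entry of either kind. Of 16 nuclear envelope genes 3 had a thresholded peak (18.8%, 6.59 to 43, an interval that holds the 9.91% of all genes). Another 12 had a relaxed peak only. The 3 were lem-2, an inner nuclear membrane protein (signal 60.3), lem-4 (39.1) and baf-1, a chromatin protein that binds the envelope (30.5). lmn-1, for the single worm lamin, had a relaxed peak of 5.65, emr-1, for emerin, 20.6, and mel-28, for the nucleoporin ELYS, had none. Of 13 mRNA export genes found in the annotation (of 14 names, gle-1 was not found as such, since GLE1 is listed as npp-26 and is counted among the 40) 7 had a thresholded peak (53.8%, 29.1 to 76.8). They were thoc-5 (89.1), thoc-7 (68.4), nxf-1, for the main mRNA export receptor (49.6), its partner nxt-1 (33.2), hel-1, a helicase of the export complex (28.6), aly-2 (26.6) and thoc-3 (23.6). Of these, hel-1 and aly-2 overlapped no entry of replicate 1, and nxt-1 and thoc-3 ranked only 2206 and 3169 there. Another 5 had a relaxed peak only: ddx-19 (22.3), thoc-1 (9.36), thoc-2 (9), nxf-2 (5.18) and aly-3 (4.75). aly-1 had none. The summits of thoc-3 and thoc-7 were 958 and 791 bp upstream, in the outer part of the window. For neither list were peaks shared with another gene set apart, as they were for the members. rae-1, a pore protein once named npp-17 and added after the annotation was seen, had a thresholded peak of 53 and ranked 521 and 711.

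In the 100 bp around the 20 member summits the median G and C content was 47% (range 39 to 57), beside 48% at 1439 thresholded promoter summits and 38% at 8539 weaker promoter summits. The homeodomain core TAATTA was in 0 of 20, beside 1.53% of thresholded and 3.9% of weaker promoter summits. The repeat GAGAGA was in 0 of 20, beside 24.4% and 11.8%. CTGCGTC was in 2 of 20 (10%, imb-3 and npp-3), beside 13.5% and 2.97%. GGCGGG was in 5 of 20 (25%, ima-1, imb-3, npp-8, npp-22 and npp-23), beside 7.99% and 2.59%. Each was searched on both strands, none of the 4 contains another, and no test was made. A match is a description of letters and not a site, and no match says only that these letters are not in this window.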

How the data were processed

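ChIP-seq peaks were analysed for 2 biological replicates of 1 group. The authors aligned reads to ce11, called peaks in each replicate and on both pooled, and thresholded the pooled list by irreproducible discovery rate (IDR), per the text deposited with the samples. Aligner, caller, threshold and depth: not given in the sources used here. For every peak the authors deposited a signal, a summit offset and a q value as -log10. The ce10 lists were not used here, since no coordinate was converted.

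Genes came from Ensembl release 115 and sequence from RefSeq, both WBcel235, whose chromosomes reach past the last peak on each of 6 chromosomes. Replicate entries were matched by overlap of at least 1 bp. No p-value was computed, since there is 1 group and the members were chosen by name. Wilson intervals at 95% cover counting error only. Tested on simulated data, the assignment placed 1200 of 1200 planted summits as their offset required. Each planted summit stood alone at a gene given 1 start. The test thus covers the window edges and not several starts, competing peaks or shared windows.

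The members, lists, motifs and alternatives were chosen with earlier results of these data known. All members are named, and other genes where they share a peak, belong to a list or were added as stated. Python 3.11.15, NumPy 2.4.6, SciPy 1.17.1 and matplotlib 3.10.9 were used.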

Additional observations from a re-analysis of the deposited data

How the results depend on the processing

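Of 26 alternatives 22 left the value within 1.5 times of that reported (within 10% for medians of signal and distance). Counts, signals and list places cannot be negative, so a change of direction was possible only for the distance. The median distance stayed upstream in each alternative. The count of members with a thresholded peak was 19 with a window of 500 bp upstream (npp-12 was lost, beside 8.24% of all genes) and 21 with 2000 bp (npp-4 was gained, 12.6%). It was 13 with only peaks of signal above the list's median (5.68% of all genes), where the median signal of member peaks was 61.8, and 9 with only unshared peaks (4.29%). Both follow from fewer peaks. Leaving out a replicate gave 18 (9.14%, without replicate 2) and 20 (9.86%, without replicate 1). The 18 from replicate 1 alone held 16 of the 20 genes, with ran-4 and xpo-3 gained, and the 20 from replicate 2 alone held 19, with npp-10 gained. Members' median place in the list was 2.46% from the top when pooled, 2.16% in replicate 2 and 6.16% in replicate 1, a shorter list. Depth is unknown, so a member without a peak is not shown to be unbound.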

Other observations

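Inverted repeats were noticed in several windows printed from the member summits, and were then counted, so the count was chosen after seeing the sequences and no test was made. An exact inverted repeat with arms of at least 8 bp and a gap of 3 to 30 bp was in 6 of 20 member windows of 100 bp (30%), beside 8.06% of 1439 thresholded and 8.75% of 8539 weaker promoter windows. Arms are in capitals on the plus strand of WBcel235 (RefSeq). The arms were 10 bp in npp-19 and npp-20 and 8 bp in ran-1 and ran-5, with gaps of 27, 24, 14 and 7 bp. The other 2 windows, of ima-2 and npp-13, are not printed.
npp-19, chrII:10798617-10798716: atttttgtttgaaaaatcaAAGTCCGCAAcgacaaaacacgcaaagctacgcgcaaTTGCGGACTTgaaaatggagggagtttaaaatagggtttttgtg
npp-20, chrIV:1496083-1496182: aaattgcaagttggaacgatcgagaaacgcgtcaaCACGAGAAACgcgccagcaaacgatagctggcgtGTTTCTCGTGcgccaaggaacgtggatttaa
ran-1, chrIII:10748153-10748252: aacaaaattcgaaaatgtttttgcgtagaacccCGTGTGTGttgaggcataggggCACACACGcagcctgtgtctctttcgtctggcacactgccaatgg
ran-5, chrII:6047791-6047890: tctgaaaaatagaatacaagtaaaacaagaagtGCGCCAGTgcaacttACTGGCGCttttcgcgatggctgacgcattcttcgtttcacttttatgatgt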
